A study of Homo sapiens with 12 samples.

Results

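The enzymes that build, lengthen and desaturate fatty acids were followed in 2 human uveal melanoma cell lines treated with an ATR inhibitor. The set has 9 genes, ACSS2, ACLY, ACACA, FASN, ELOVL6, SCD, FADS2, ELOVL5 and FADS1. They were found by gene name in the count tables of both lines, 9 of 44938 features in the table of 92.1 and 9 of 42342 in that of MP38. Each of the 9 names matched 1 feature in each table, and all 9 passed the filter on low counts in both.

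Uveal melanoma is a cancer of the pigment cells of the eye, and 92.1 and MP38 are established lines of it. Cells were kept for 72 hours with VE-822 (berzosertib), which inhibits ATR, a kinase activated where replication forks stall, or with its solvent DMSO alone. The groups were 92.1 in VE-822, 92.1 in DMSO, MP38 in VE-822 and MP38 in DMSO, with 3 libraries of poly(A) RNA each, 12 in all. The dose of VE-822 is not given in the labels and was set line by line for a viability of about 40%, so dose and line cannot be told apart. Nothing in the labels tells whether replicate libraries are separate cultures, so the p-values may rest on technical spread alone.

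Fatty acids are made in the cytosol from acetyl-CoA. ACLY makes acetyl-CoA from citrate and ACSS2 makes it from acetate. ACACA carboxylates it to malonyl-CoA, and FASN joins these units into the saturated fatty acid palmitate. ELOVL6 lengthens palmitate to stearate, and SCD places the double bond that turns saturated into monounsaturated fatty acids such as oleate. FADS2, ELOVL5 and FADS1 act in turn on dietary polyunsaturated fatty acids, as the entry desaturase, an elongase and the later desaturase that yields arachidonic acid. Most of these genes are known targets of the sterol regulatory element-binding proteins, SREBPs, membrane-bound transcription factors that are held in the endoplasmic reticulum by INSIG proteins and released when lipids are scarce.

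Promoter sequences are shown for SCD, ELOVL5 and FADS2, the 3 members whose response to VE-822 differed between the lines. Each runs 5′ to 3′ on the gene's own strand, from 250 bases before to 50 bases after an annotated start in RefSeq on GRCh38.p14. The windows are chr10:100346983-100347282 on the plus strand for SCD, chr6:53348901-53349200 on the minus strand for ELOVL5 and chr11:61816154-61816453 on the plus strand for FADS2. Capitals mark CCAAT, read as ATTGG where it lies on the other strand, and CACGTG, the E-box core.
SCD: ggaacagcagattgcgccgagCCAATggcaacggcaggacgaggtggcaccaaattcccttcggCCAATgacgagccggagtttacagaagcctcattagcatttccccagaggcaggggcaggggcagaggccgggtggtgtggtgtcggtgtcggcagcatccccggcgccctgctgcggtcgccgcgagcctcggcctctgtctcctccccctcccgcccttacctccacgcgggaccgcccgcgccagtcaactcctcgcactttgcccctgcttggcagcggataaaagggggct
ELOVL5: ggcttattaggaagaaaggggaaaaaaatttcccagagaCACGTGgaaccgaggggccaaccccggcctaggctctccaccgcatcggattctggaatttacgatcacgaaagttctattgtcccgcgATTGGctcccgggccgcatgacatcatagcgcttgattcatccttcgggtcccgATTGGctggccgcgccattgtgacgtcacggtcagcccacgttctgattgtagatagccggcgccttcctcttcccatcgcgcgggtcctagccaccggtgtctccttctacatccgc
FADS2: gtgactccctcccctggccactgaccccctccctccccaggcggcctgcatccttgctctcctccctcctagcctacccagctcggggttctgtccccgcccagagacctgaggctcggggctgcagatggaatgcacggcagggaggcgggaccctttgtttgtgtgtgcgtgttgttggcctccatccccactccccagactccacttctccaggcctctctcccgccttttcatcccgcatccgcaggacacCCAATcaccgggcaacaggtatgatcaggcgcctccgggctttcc
CCAAT occurs at bases 22 to 26 and 65 to 69 of the SCD window. In the ELOVL5 window it lies at 129 to 133 and 183 to 187, on the other strand. In the FADS2 window it lies at 256 to 260, after the annotated start. CACGTG occurs at bases 40 to 45 of the ELOVL5 window. All members but FASN, 8 of 9, were matched in the RefSeq promoter table, with 13 promoters between them. Searched on both strands, CCAAT was found in 8 of these 13 and in 34.6% of all 35116 promoters of the same length, and CACGTG in 1 of 13 and 7.26% of all. GGGCGG, the GC box, was found in 10 of 13 and 45.0% of all, and TCACNCCAC, the classical sterol regulatory element, in 0 of 13 and 1.13% of all. The 13 windows are not all separate sequences: those of ACLY overlap and share their CCAAT and GGGCGG matches, and those of FADS2 overlap too. The other FADS2 window, chr11:61815953-61816252 on the plus strand, is not printed and held no match to any of these motifs. None of these motifs contains another, and a match is a description of the letters, not a binding site.

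Total counts per library were 113370680 to 137664800 in 92.1 with VE-822, 112374503 to 123705501 in 92.1 with DMSO, 54415628 to 60891725 in MP38 with VE-822 and 61045071 to 63638976 in MP38 with DMSO. Replicates of a group differed by a chi-square per gene of 2.39 to 8.32, except DMSO library 3 of 92.1, which differed from DMSO libraries 1 and 2 by 93.0 and 93.6. Log2 fold changes of the members and numbers of related genes called in 92.1 are therefore given with and without that library. Means, ratios, shares of counts, DMSO levels, correlations and values of single related genes in 92.1 include it unless stated. The 7 melanocyte markers were all above 1 CPM (a gene's count scaled by the library's size after TMM adjustment) in every group. Their summed level was 19644 to 19918 CPM with VE-822 against 18824 to 19035 CPM with DMSO in 92.1, and 5452 to 5470 against 4423 to 4595 CPM in MP38. Single markers did not all move with the sum. With VE-822 in 92.1, PMEL, MLANA, TYR and TYRP1 were higher, DCT and MITF lower, and SOX10 overlapped. With VE-822 in MP38, PMEL, MLANA and TYRP1 were higher, and TYR, DCT, MITF and SOX10 lower. The summed markers of leukocytes, endothelium, epithelium and fibroblasts reached at most 8.12 CPM in any library.

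In MP38 most of the pathway was higher with VE-822: 7 of the 9 members were higher, 1 was lower and 1 did not pass the test. SCD had the largest change of the 9, 1.94-fold, and the other 6 that rose did so by 1.09- to 1.32-fold. In 92.1 the members split, with 3 higher (FASN, ACACA and SCD), 3 lower (ELOVL5, FADS2 and FADS1) and 3 that did not pass (ACSS2, ACLY and ELOVL6). Without DMSO library 3 of 92.1, 3 were higher and 6 lower. A call means an adjusted p under 0.05 in edgeR's quasi-likelihood test, with Benjamini-Hochberg adjustment over all genes.

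These counts stand beside many changes elsewhere. In MP38, 26.9% of the 21415 genes tested were called higher and 25.4% lower, 52.3% in all. In 92.1, 20.3% of 22943 genes were called higher and 19.6% lower, 39.9% in all. Without DMSO library 3, 26.8% of 23816 genes were higher and 29.0% lower, 55.7% in all. The CPM of VE-822 and DMSO libraries did not overlap for 52.9% of genes in 92.1 and 58.7% in MP38. The median log2 fold change of the members was -0.04 in 92.1 and 0.15 in MP38, where that of all genes was 0.03 and -0.01. The members together took 0.608 ± 0.0275% of counts with VE-822 against 0.472 ± 0.0722% with DMSO in 92.1, and 0.292 ± 0.0140% against 0.223 ± 0.00185% in MP38 (SD, n = 3). DMSO library 3 of 92.1 stood at 0.389%, and DMSO libraries 1 and 2 at 0.519% and 0.509%. This share weighs abundant members most. In 92.1 FASN averaged 2383 CPM with VE-822 against 1524 CPM with DMSO, and SCD 2246 against 1848 CPM, while 3 members were called lower. In each line the shares of the groups did not overlap, and the exact two-sided permutation p was 0.1, the smallest that 3 against 3 libraries allow. The share of counts from mitochondrial genes moved the same way, 10.4 ± 0.137% against 9.23 ± 0.113% in 92.1 and 8.59 ± 0.0997% against 7.02 ± 0.223% in MP38, and its part in the members' values was not tested. In such bulk samples, fewer cells of a kind and less RNA per cell cannot be told apart.

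**Figure D1:**
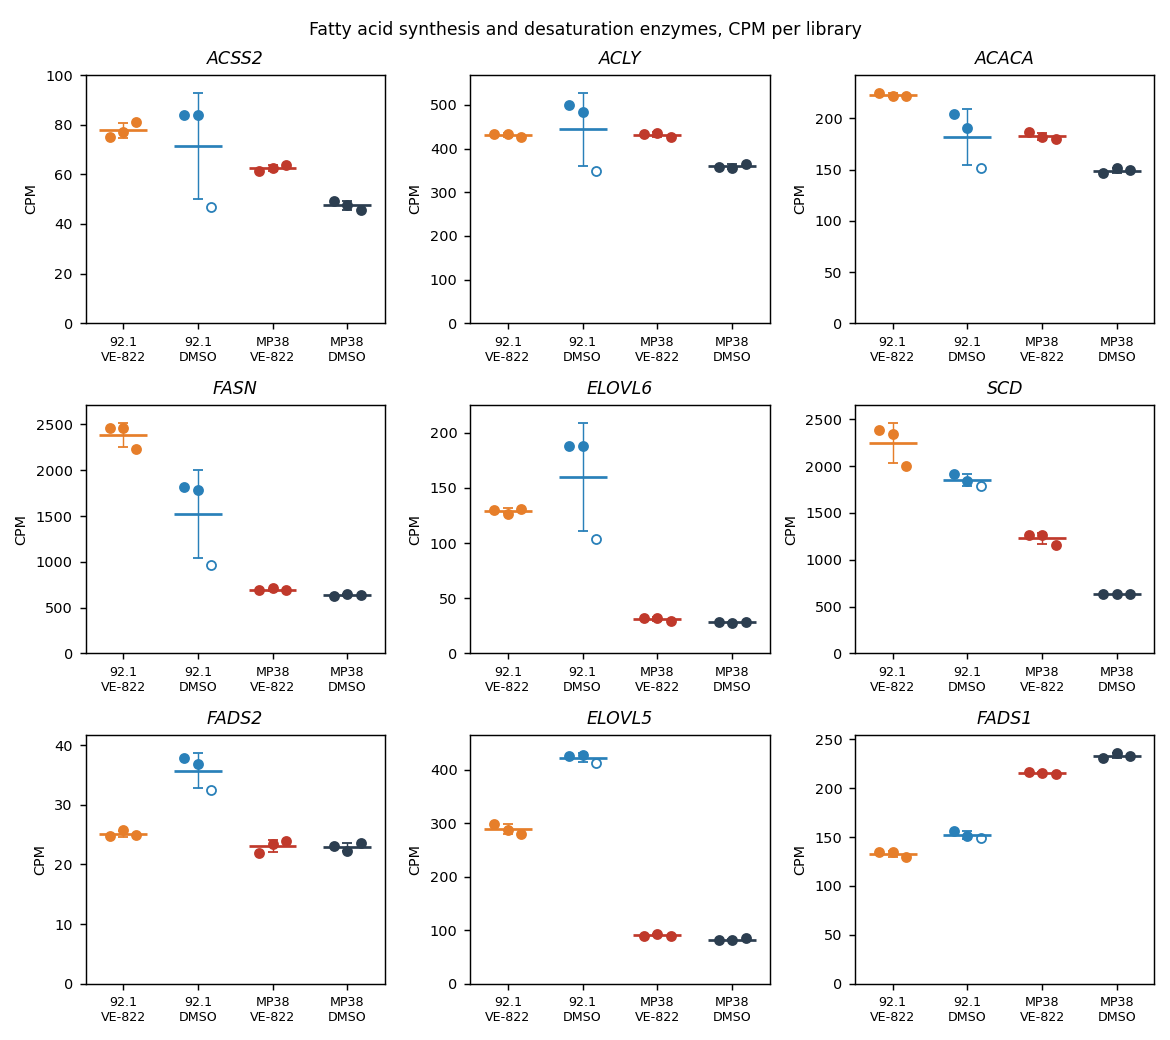
CPM of each of the 9 enzymes in every library, in 92.1 and MP38 with VE-822 or DMSO. Points are libraries, lines the mean and bars the SD (n = 3), and the open circle is DMSO library 3 of 92.1. SCD in MP38 sits at 1156 to 1269 CPM with VE-822, above 633 to 636 CPM with DMSO.

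The plot of CPM by library shows tight groups in MP38 and, in 92.1, DMSO spreads that depend on a single library for ACSS2, ACLY, ACACA, FASN and ELOVL6.

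The enzymes that supply acetyl-CoA and commit it to lipid were all higher in MP38, and in 92.1 only ACACA of the 3 was called. ACSS2, the acetate enzyme (chr20:34872146-34927962, GRCh38), was at 61.4, 62.5 and 63.9 CPM with VE-822 in MP38, against 49.4, 47.5 and 45.8 CPM with DMSO. The groups did not overlap, and the log2 fold change was 0.40 ± 0.0408 (SE, adjusted p = 6.4e-08). In 92.1 it was at 75.2, 77.1 and 81.1 CPM with VE-822, against 83.8, 83.8 and 47.0 CPM with DMSO. All 3 VE-822 libraries lay between DMSO library 3 and the other DMSO libraries. The log2 fold change was 0.12 (95% interval -0.31 to 0.55, adjusted p = 0.644), and without DMSO library 3 it was -0.14 ± 0.0356 (adjusted p = 0.00291).

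ACLY, the citrate enzyme (chr17:41866917-41930542), was at 433, 437 and 426 CPM with VE-822 in MP38, against 358, 355 and 364 CPM with DMSO. Every VE-822 library was above every DMSO library, with a log2 fold change of 0.27 ± 0.0364 (adjusted p = 3.1e-06). In 92.1 it was at 434, 433 and 427 CPM with VE-822, against 499, 485 and 348 CPM with DMSO. Those groups overlapped, with a log2 fold change of -0.04 (95% interval -0.31 to 0.23, adjusted p = 0.802). Without DMSO library 3 it was -0.22 ± 0.0288 (adjusted p = 2.98e-06). In the GENCODE 29 annotation 156 exonic bases of ACLY, 2.99%, are shared with the antisense gene AC125257.2, and whether counting used strand is not given in the sources used here.

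ACACA, the carboxylase that makes malonyl-CoA (chr17:37084992-37406836), was the member of this step that was higher in both lines. It was at 225, 222 and 222 CPM with VE-822 in 92.1, against 205, 190.3 and 152 CPM with DMSO, and at 186, 182 and 179.7 CPM with VE-822 in MP38, against 146, 151 and 149.5 CPM with DMSO. The groups did not overlap in either line. The log2 fold change was 0.29 ± 0.0966 in 92.1 (adjusted p = 0.0415) and 0.29 ± 0.0361 in MP38 (adjusted p = 8.52e-07). In 92.1 it was 0.14 ± 0.0327 without DMSO library 3 (adjusted p = 0.00114), and the call was lost without any 1 of the VE-822 libraries or without DMSO library 2.

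FASN, the palmitate synthase (chr17:82078338-82098294), was among the most abundant members and was higher with VE-822 in both lines. In 92.1 it was at 2460.1, 2458 and 2232 CPM with VE-822, against 1817, 1785 and 969 CPM with DMSO. DMSO library 3 was the lowest by far, yet the VE-822 libraries were above all 3 DMSO libraries. The log2 fold change was 0.65 ± 0.204 (adjusted p = 0.0338) with that library included. Leaving it out gave 0.37 ± 0.0372 (adjusted p = 1.09e-07). The call was lost in DESeq2 (adjusted p = 0.0555) and without any 1 VE-822 library. In MP38 FASN was at 693, 709.7 and 690.2 CPM with VE-822, against 632, 651 and 640.4 CPM with DMSO, a small step of 0.12 ± 0.0373 on the log2 scale (adjusted p = 0.00934). That call was lost without VE-822 library 2 (adjusted p = 0.0696) or DMSO library 1 (adjusted p = 0.0702), in the joint fit of both lines (0.548) and in limma on log2(FPKM + 1) (0.0567) and log2(FPKM + 0.1) (0.0593).

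ELOVL6, the elongase of palmitate (chr4:110045846-110199199), was at 129.9, 127 and 131 CPM with VE-822 in 92.1, against 188, 188 and 103 CPM with DMSO. The VE-822 libraries again lay between DMSO library 3 and the other DMSO libraries. The log2 fold change was -0.31 (95% interval -0.75 to 0.13, adjusted p = 0.242), and leaving out DMSO library 3 gave -0.57 ± 0.0294 (adjusted p = 1.23e-11). In MP38 ELOVL6 was at 31.9, 32.4 and 29.6 CPM with VE-822, against 28.1, 28.0 and 28.3 CPM with DMSO, a rise of 0.15 ± 0.0465 on the log2 scale (adjusted p = 0.00918). This call was lost in 5 other settings: library size as the only scaling (adjusted p = 0.0709), the fit without VE-822 library 2 (0.0666), the joint fit of both lines (0.458) and limma on log2(FPKM + 1) (0.167) and log2(FPKM + 0.1) (0.153).

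SCD, the stearoyl-CoA desaturase (chr10:100347233-100364826), was the enzyme of the set that rose most in MP38. It was at 1269, 1259 and 1156 CPM with VE-822 in MP38, against 636, 633 and 634 CPM with DMSO. The groups were far apart, with a log2 fold change of 0.95 ± 0.0421 (adjusted p = 1.65e-13). In 92.1 SCD was at 2390.2, 2346 and 2003 CPM with VE-822, against 1915, 1843 and 1787 CPM with DMSO. The groups did not overlap there either, and the log2 fold change was 0.28 ± 0.0732 (adjusted p = 0.0151) or 0.23 ± 0.0508 without DMSO library 3 (adjusted p = 0.000985). The 92.1 call was lost without VE-822 library 1 or 2. SCDP1, a pseudogene of SCD named after its values were seen, had at most 11 counts in any library.

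The polyunsaturated branch fell in 92.1, whereas in MP38 its members had log2 fold changes of -0.11 to 0.13. FADS2, its entry desaturase (chr11:61792980-61867354), was at 24.7, 25.7 and 24.9 CPM with VE-822 in 92.1, against 37.8, 36.9 and 32.4 CPM with DMSO. All VE-822 libraries were below all DMSO libraries, with a log2 fold change of -0.51 ± 0.0690 (adjusted p = 0.000569). Leaving out DMSO library 3 gave -0.61 ± 0.0384 (adjusted p = 2.4e-10). In MP38 it was at 22.0, 23.4 and 23.9 CPM with VE-822, against 23.0, 22.2 and 23.5 CPM with DMSO. These groups overlapped, and the log2 fold change was 0.01 (95% interval -0.09 to 0.12, adjusted p = 0.869).

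ELOVL5, the elongase of this branch (chr6:53267398-53349179), was at 299, 287 and 279.6 CPM with VE-822 in 92.1, against 425, 428 and 412 CPM with DMSO. It fell by 0.55 on the log2 scale (SE 0.0467, adjusted p = 4.18e-05), with no overlap and the DMSO libraries close together. The log2 fold change was -0.60 ± 0.0303 when DMSO library 3 was left out (adjusted p = 1.11e-11). In MP38 it was at 88.9, 92.4 and 89.3 CPM with VE-822, against 80.8, 81.3 and 84.6 CPM with DMSO, a rise of 0.13 ± 0.0373 (log2, adjusted p = 0.00508). The MP38 call was lost in limma on log2(FPKM + 1) (adjusted p = 0.0513) and on log2(FPKM + 0.1) (adjusted p = 0.0517).

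FADS1, the later desaturase (chr11:61799627-61829318), was the member called lower in both lines. It was at 135, 134 and 129 CPM with VE-822 in 92.1, against 156, 151 and 149 CPM with DMSO, a log2 fold change of -0.20 ± 0.0445 (adjusted p = 0.00816), or -0.24 ± 0.0301 with DMSO library 3 left out (adjusted p = 1.98e-06). In MP38 it was at 217, 215 and 215 CPM with VE-822, against 231, 236 and 233 CPM with DMSO, a log2 fold change of -0.11 ± 0.0352 (adjusted p = 0.0103). The MP38 call was lost without DMSO library 2 (adjusted p = 0.0532) and in the joint fit of both lines (adjusted p = 0.0547).

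FADS1 and FADS2 lie on opposite strands of chromosome 11 and share 490 exonic bases in GENCODE 29, 4.79% of FADS1 and 4.44% of FADS2, so their counts are not fully separate. FADS2 also shares 49 bases with FEN1, a flap endonuclease of DNA replication, on the same strand. FEN1, named after its values were seen, was at 34.4 ± 2.96 CPM with VE-822 against 112 ± 27.3 CPM with DMSO in 92.1, and at 59.5 ± 1.26 against 54.0 ± 1.43 CPM in MP38. The part of shared reads in the FADS2 values was not tested.

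**Figure D2:**
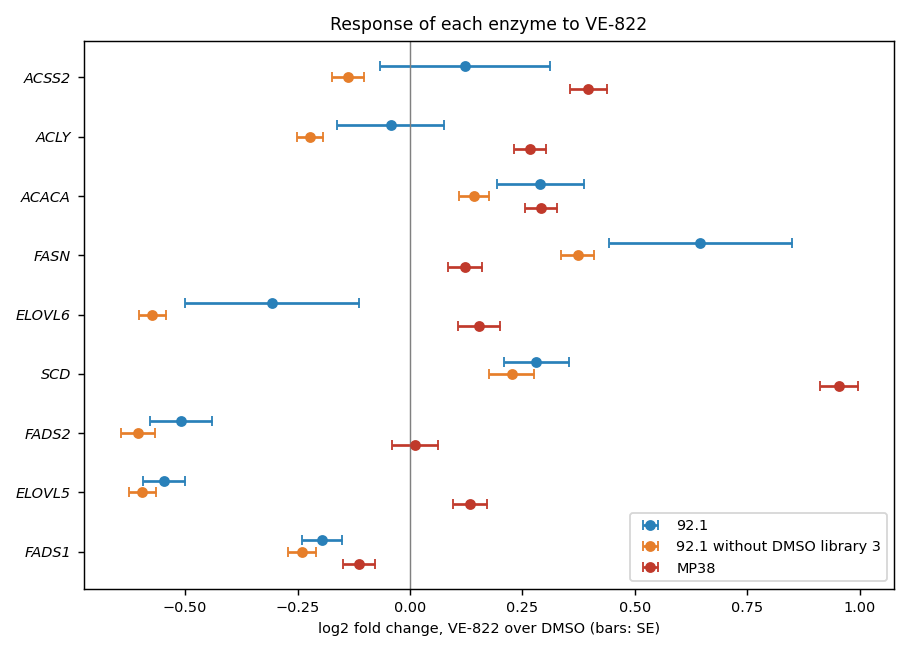
Log2 fold change of each enzyme, VE-822 over DMSO, with the SE as bars, for 92.1, for 92.1 without DMSO library 3 and for MP38. ELOVL5 and FADS2 lie left of 0 in 92.1 with and without that library, while ACSS2 lies at 0.12 with it and at -0.14 without it.

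The plot of log2 fold changes separates members whose 92.1 value moved with DMSO library 3 from those whose value did not. In that library FASN was at 0.538 of the mean of DMSO libraries 1 and 2, ELOVL6 at 0.551 and ACSS2 at 0.560. ACLY was at 0.708, ACACA at 0.769 and FADS2 at 0.868, whereas SCD, ELOVL5 and FADS1 were at 0.951 to 0.972. Of 10989 genes with at least 5 CPM in DMSO libraries 1 and 2, 4.69% were below 0.75 in that library, and 4 of the 9 members lie at 0.538 to 0.708. The median log2 ratio of these 10989 genes was -0.04. Apart from PMVK at 1.06, the genes of cholesterol synthesis, the other branch of the SREBP program, lay at 0.381 (HMGCS1) to 0.826 (FDFT1). PMVK, HMGCS1 and FDFT1 were named after their values were seen. INSIG1 was at 0.521, SREBF2 at 1.05 and SREBF1 at 1.28 of the mean of DMSO libraries 1 and 2. What set that library apart was not tested.

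**Figure D3:**
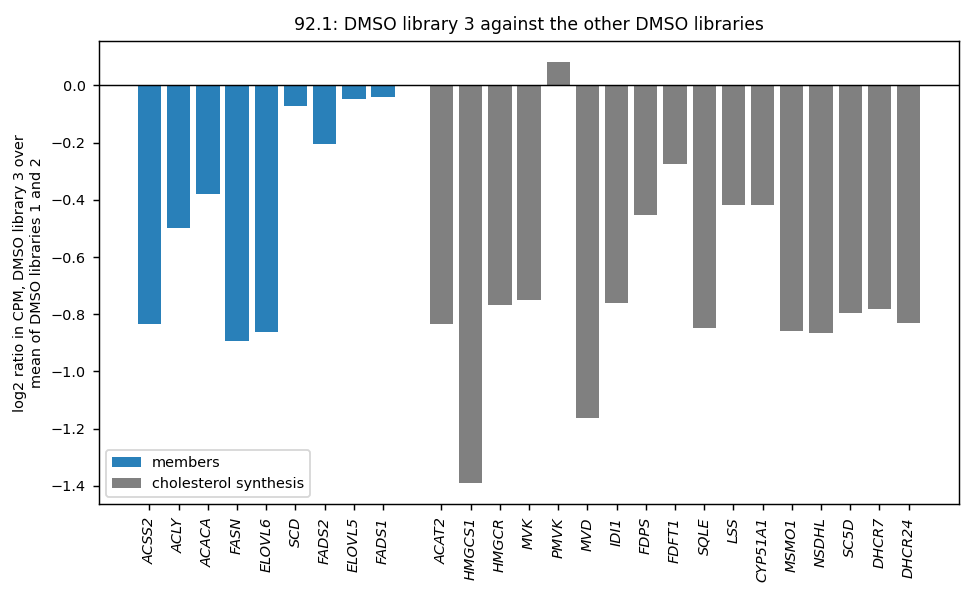
Log2 ratio in CPM of DMSO library 3 of 92.1 over the mean of DMSO libraries 1 and 2, for the 9 enzymes (blue) and the 17 genes of cholesterol synthesis (grey). SCD, ELOVL5 and FADS1 are close to 0, FASN, ELOVL6 and ACSS2 are the lowest of the 9, and PMVK is the only bar above 0.

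Whether the lines responded alike was tested in 1 fit of all 12 libraries, as the 92.1 response minus the MP38 response. The difference was called for 3 members, all negative: SCD at -0.64 ± 0.0860 (adjusted p = 1.94e-05), ELOVL5 at -0.65 ± 0.0624 (adjusted p = 5.36e-07) and FADS2 at -0.49 ± 0.0888 (adjusted p = 0.00034), in log2 with SE. SCD rose in both lines, by less in 92.1, whereas ELOVL5 was lower in 92.1 and higher in MP38. Of 24958 genes tested, 22.1% were called with a positive difference and 18.8% with a negative one, 40.9% in all, and the median difference of all genes was 0.11.

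The other 6 members did not pass. FASN had a difference of 0.55 (95% interval 0.09 to 1.02, adjusted p = 0.0551), ELOVL6 of -0.43 (-0.89 to 0.03, adjusted p = 0.127) and ACSS2 of -0.25 (-0.69 to 0.20, adjusted p = 0.369). For ACACA the interval was -0.21 to 0.26 and for FADS1 -0.17 to 0.07. Without DMSO library 3 of 92.1, FASN was called with a positive difference and 7 members with a negative one, so the number of differing members rests on that library.

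In DMSO, 8 of the 9 members were higher in 92.1 than in MP38 and FADS1 was lower, where 38.5% of all genes were called higher and 41.2% lower, 79.7% in all. ELOVL6 averaged 159.8 ± 48.8 CPM in 92.1 against 28.1 ± 0.141 CPM in MP38, a log2 difference of 2.67 ± 0.162 (adjusted p = 1.79e-10). These differences include DMSO library 3 of 92.1. Over DMSO libraries 1 and 2 of 92.1 alone, ELOVL6 averaged 188 CPM. ELOVL5 differed by 2.52 ± 0.0464, SCD by 1.71 ± 0.0625 and FASN by 1.41 ± 0.157. FADS2, ACSS2, ACLY and ACACA differed by 0.80, 0.75, 0.47 and 0.45, and FADS1 by -0.45 ± 0.0406. The lines came in separate tables of different depth, so line and table cannot be told apart. With library size as the only scaling the median of all genes was -0.27 in place of -0.05, and no member lost its call.

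**Figure D4:**
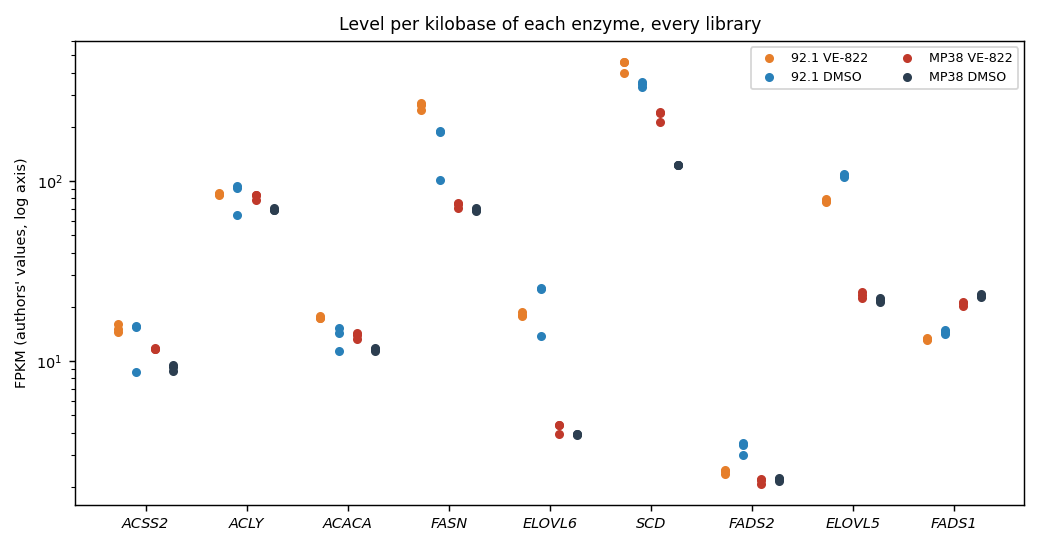
FPKM of the 9 enzymes in every library on a log axis, which sets levels between genes on a per-length scale. SCD is the highest in all 4 groups, at 122 to 459 FPKM, and FADS2 the lowest, at 2.08 to 3.49 FPKM.

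Per length, in the authors' FPKM, the chain was uneven. SCD averaged 438 ± 35.0 FPKM with VE-822 against 344 ± 12.2 FPKM with DMSO in 92.1, and 231 ± 16.7 against 122 ± 0.424 FPKM in MP38. FASN averaged 262 ± 10.8 against 159.6 ± 50.7 FPKM in 92.1 and 73.8 ± 2.40 against 69.7 ± 1.29 FPKM in MP38. The desaturase stood higher than the synthase in every library, and the gap between them moved in opposite directions. The ratio of SCD to FASN was 1.67 ± 0.0691 with VE-822 against 2.33 ± 0.823 with DMSO in 92.1, where DMSO library 3 alone stood at 3.28, and 3.13 ± 0.139 against 1.76 ± 0.0296 in MP38.

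The ratio of FADS1 to FADS2 was 5.46 ± 0.150 with VE-822 against 4.41 ± 0.296 with DMSO in 92.1, and 9.64 ± 0.483 against 10.5 ± 0.387 in MP38. The ratio of ACLY to ACSS2 was 5.59 ± 0.259 against 6.44 ± 0.905 in 92.1 and 6.95 ± 0.212 against 7.61 ± 0.371 in MP38. For these 3 ratios the groups did not overlap in either line, and the exact two-sided permutation p was 0.1, the smallest possible. The ratio of ELOVL5 to ELOVL6 overlapped in both lines, at 4.26 ± 0.167 with VE-822 against 5.42 ± 1.89 with DMSO in 92.1 (exact permutation p = 0.5) and 5.51 ± 0.226 against 5.58 ± 0.115 in MP38 (exact permutation p = 0.7). For this ratio DMSO library 3 of 92.1 stood at 7.60, and DMSO libraries 1 and 2 at 4.31 and 4.35. In order of mean FPKM, SCD, FASN, ACLY and ELOVL5 did not follow the same sequence in the lines. With DMSO in 92.1 ELOVL5 averaged 108 ± 2.51 FPKM and ACLY 83.2 ± 15.8 FPKM, while in MP38 ELOVL5 averaged 21.8 ± 0.518 FPKM and ACLY 69.8 ± 0.735 FPKM. FASN and ACLY of MP38 in DMSO were neighbours that overlapped, at 68.5 to 71.1 and 69.3 to 70.6 FPKM.

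The regulators of these genes also moved. INSIG1, which retains the SREBP complex in the endoplasmic reticulum, was at 138, 135 and 130.2 CPM with VE-822 in 92.1, against 179, 179 and 93.2 CPM with DMSO. In MP38 it was at 51.6, 52.2 and 49.5 CPM with VE-822, against 14.5, 15.6 and 15.3 CPM with DMSO, a rise of 1.75 ± 0.0468 on the log2 scale (adjusted p = 1.27e-16), larger than that of any member. In 92.1 the log2 fold change was -0.16 (adjusted p = 0.578), and leaving out DMSO library 3 gave -0.44 (adjusted p = 4.49e-10). Its response differed between the lines by -1.89 ± 0.238 (log2, adjusted p = 1.04e-05). SREBF2, which encodes SREBP-2, rose by 0.60 ± 0.0381 in MP38 (adjusted p = 4.98e-11) and had a log2 fold change of -0.11 ± 0.0454 in 92.1 (adjusted p = 0.0761), which was -0.12 ± 0.0287 and called lower with DMSO library 3 left out (adjusted p = 0.00171). SREBF1, which encodes the isoforms that favour fatty acid synthesis, was higher in both lines, by 0.38 ± 0.117 in 92.1 (adjusted p = 0.0323) and 0.26 ± 0.0370 in MP38 (adjusted p = 5.29e-06), although in 92.1 its groups overlapped. Leaving out DMSO library 3 gave 0.48 ± 0.0619 for SREBF1 in 92.1 (adjusted p = 3.21e-06).

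Of the 12 tested regulators, 3 were higher, 1 lower and 8 without a call in 92.1, against 6, 3 and 3 in MP38. With DMSO library 3 left out, 4 were higher and 6 lower in 92.1. In 92.1 MLXIPL, the carbohydrate-response factor ChREBP, rose by 0.62 ± 0.0698 (adjusted p = 0.000213), and in MP38 it was under 1 CPM in both groups, at 0.372 ± 0.0383 CPM with VE-822 against 0.638 ± 0.1203 CPM with DMSO. MID1IP1, which activates ACACA, rose by 0.75 ± 0.0460 in MP38 (adjusted p = 3.04e-11). The list for the AMP-activated kinase, which inhibits ACACA, held 7 genes: its subunits and the upstream kinase STK11. Of these, 3 were higher and 1 lower in each line, and in 92.1 also with DMSO library 3 left out. The subunit PRKAB2 rose in both lines, by 0.54 ± 0.0596 in 92.1 (adjusted p = 0.000176) and 0.85 ± 0.0549 in MP38 (adjusted p = 6.37e-11).

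The genes that feed the pathway with acetyl-CoA and NADPH split by line. In 92.1, 0 of 11 were higher and 6 lower, or 8 lower with DMSO library 3 left out. They included CS, the citrate synthase, at -0.28 ± 0.0439 (adjusted p = 0.00135), and PC, the pyruvate carboxylase, at -0.36 ± 0.0563 (adjusted p = 0.00117). In MP38, 8 of 12 were higher and 2 lower. IDH1, the cytosolic isocitrate dehydrogenase that makes NADPH, was at 164 ± 13.2 CPM with VE-822 against 91.1 ± 5.67 CPM with DMSO, a rise of 0.85 ± 0.0520 (adjusted p = 2.73e-11).

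Of the other elongation and desaturation genes, 3 were higher and 3 lower of 15 tested in 92.1, and 9 higher and 3 lower of 16 in MP38. With DMSO library 3 left out, 4 were higher and 8 lower in 92.1, and the median log2 fold change was -0.16. ELOVL2, which lengthens long polyunsaturated fatty acids, fell in both lines. It was at 1.80 ± 0.109 CPM with VE-822 against 2.90 ± 0.0501 CPM with DMSO in 92.1, and at 29.2 ± 1.86 against 65.7 ± 0.323 CPM in MP38. HSD17B12, the ketoreductase of the elongation cycle, rose by 0.64 ± 0.0405 in MP38 (adjusted p = 4.75e-11). CYB5B, an outer mitochondrial membrane cytochrome, rose there by 0.74 ± 0.0388 (adjusted p = 2.48e-12). Mitochondrial fatty acid synthesis genes were listed together with ACACB. This list had 0 higher and 3 lower of 8 in 92.1, and 1 higher and 2 lower of 8 in MP38. With DMSO library 3 left out it had 2 higher and 5 lower in 92.1.

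Among genes that activate fatty acids and build glycerolipids, 5 were higher and 4 lower of 18 in 92.1, and 8 higher and 4 lower of 17 in MP38. With DMSO library 3 left out, 7 were higher and 8 lower in 92.1. ACSL3, an acyl-CoA synthetase of lipid droplets, was at 260.4 ± 4.64 CPM with VE-822 against 111 ± 5.44 CPM with DMSO in MP38 (log2 fold change 1.23 ± 0.0404, adjusted p = 1.89e-15). ACSL1, another acyl-CoA synthetase, was lower in 92.1, at -0.39 ± 0.0508 (adjusted p = 0.000476), and higher in MP38, at 0.48 ± 0.0385 (adjusted p = 1.58e-09). Fatty acid oxidation had 7 higher and 3 lower of 17 in 92.1, and 11 higher and 4 lower of 17 in MP38. With DMSO library 3 left out it had 11 higher and 3 lower in 92.1. ACADVL, which starts the oxidation of very long chains, rose in both lines, by 0.45 ± 0.0466 in 92.1 (adjusted p = 0.000133) and 0.34 ± 0.0377 in MP38 (adjusted p = 1.54e-07). HADH, a later enzyme of the same spiral, fell by 0.80 in 92.1 (SE 0.0464, adjusted p = 4.62e-06).

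Uptake and binding genes numbered 3 higher and 1 lower of 8 in 92.1, and 4 higher and 1 lower of 7 in MP38. With DMSO library 3 left out, 4 were higher and 2 lower in 92.1. The fatty acid carrier FABP5 was lower in 92.1, at -0.47 ± 0.0599 (adjusted p = 0.000428), and higher in MP38, at 0.32 ± 0.0366 (adjusted p = 3.31e-07).

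Cholesterol synthesis rose almost throughout in MP38 and not in 92.1. In 92.1, 0 of 17 were higher, 1 was lower and 16 had no call, with a median log2 fold change of -0.03. Without DMSO library 3, 0 were higher and 15 lower, with a median of -0.30. In MP38, 16 of 17 were higher and 1 lower, with a median of 0.51. ACAT2, which condenses acetyl-CoA for this branch, was at 12.6 ± 0.753 CPM with VE-822 against 19.9 ± 5.92 CPM with DMSO in 92.1, and at 25.8 ± 0.178 against 9.80 ± 0.307 CPM in MP38. These list counts are read beside the shares of all genes called, given above, and nothing particular to a list was tested.

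**Figure D5:**
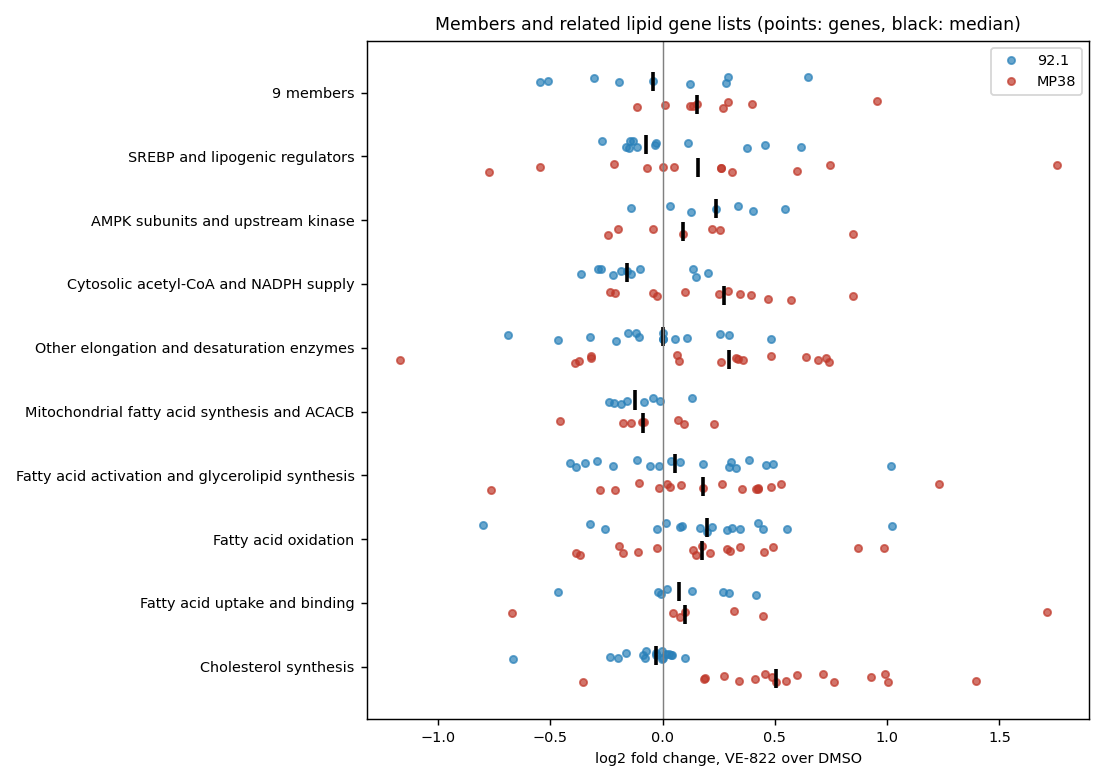
Log2 fold change, VE-822 over DMSO, of the 9 enzymes and of each tested gene in 9 lists of related lipid genes, in 92.1 (upper points) and MP38 (lower points), with the median in black. The cholesterol list has its median at -0.03 in 92.1 and at 0.51 in MP38.

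In the plot of lists the median of the 9 enzymes lies at -0.04 in 92.1 and 0.15 in MP38, beside -0.03 and 0.51 for cholesterol synthesis and 0.20 and 0.18 for fatty acid oxidation.

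Genes whose pattern was most like that of a member were ranked by Pearson's r of log2 CPM, centred within each line, over the 12 libraries and 9758 protein-coding genes with at least 5 CPM in each line. The points share libraries and treatment, and many genes that respond to VE-822 will correlate. For FASN the closest were AGRN (r = 0.986), HEY1 (r = 0.983) and FBH1 (r = 0.977). For SCD they were COX7A2 (r = 0.990), MRPL44 (r = 0.986) and MYO5A (r = 0.982), with ELOVL7, an elongase, the fourth at 0.982. For FADS2 they were RASA3 (r = 0.994), TOE1 (r = 0.991) and TTF1 (r = 0.989). The members themselves were left out of these rankings, so none could appear among the closest genes.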

How the data were processed

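Per the submitters' processing notes, the tools were STAR 2.7.11a, featureCounts 2.0.6, cutadapt 4.8, MultiQC 1.7 and FastQC 0.12.1, and the build GRCh38.p13; parameters and strand setting are not given in the sources used here. The authors deposited raw counts per gene, with no normalization, and FPKM values per gene, in 1 table per line and unit. Both tables of a line were read by gene name.

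From the counts, edgeR 4.0.16 in R 4.3.3 gave TMM-scaled CPM and quasi-likelihood F tests. Genes were kept by filterByExpr (minimum count 10, minimum total 15), each line was fitted alone, and 1 joint fit of 12 libraries gave the differences between lines. That fit uses 1 spread per gene, although DMSO library 3 of 92.1 stood far from the other libraries of its group. The Benjamini-Hochberg adjustment ran over every gene of a fit, with calls under 0.05. The SE was taken from the F statistic. FPKM served for levels between genes and, as log2(FPKM + 1) in limma 3.58.1, as an alternative; DESeq2 1.42.0, other scalings, no filter, a replicate block and leaving out each library were further ones. A robust fit was added after seeing the data. The fits were tested on simulated counts with independent replicates and no outlying library. That test does not cover DMSO library 3 of 92.1 or replicates that are not separate cultures.

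All 9 members are named. In each list of related genes the text may name up to 3 called genes per line with the smallest adjusted p, besides SREBF1, SREBF2 and INSIG1. The members and lists were chosen with earlier results of these data known. Positions are those of the deposited tables; exon overlaps come from GENCODE 29, which shares the versioned ID of 53.8% of the features. The counts' depth is given per library above.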

Additional observations from a re-analysis of the deposited data

Results flagged for a closer look

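The response to VE-822 differed between the lines for 3 members, by a test of the difference itself in edgeR over 12 libraries. SCD differed by -0.64 (log2, 92.1 minus MP38; adjusted p = 1.94e-05). Its log2 fold change was 0.28 in 92.1 and 0.95 in MP38, and all VE-822 libraries were above all DMSO libraries in both. ELOVL5 differed by -0.65 (adjusted p = 5.36e-07), with -0.55 in 92.1 and 0.13 in MP38, each in 3 of 3 VE-822 libraries. FADS2 differed by -0.49 (adjusted p = 0.00034), with -0.51 in 92.1, lower in 3 of 3 VE-822 libraries, and 0.01 in MP38, where the groups overlapped. These 3 differences kept their sign and their call in all 19 other settings tried. Dose and line cannot be told apart.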

How the results depend on the processing

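SCD, ACACA, ACSS2 and ACLY in MP38 and ELOVL5, FADS2 and FADS1 in 92.1 kept direction and call in all 15 other settings, and all 9 differences in DMSO level kept direction in all 19, ACLY losing its call under both FPKM settings (adjusted p = 0.0668 and 0.0631). In MP38, 4 members were higher under log2(FPKM + 1) and 4 under log2(FPKM + 0.1), against 7; 5 were higher and 0 lower in the joint fit, 6 higher with library size only, and 5 to 7 higher (5 without VE-822 library 2, 6 without DMSO library 1) and 0 to 1 lower when a library was left out. In 92.1, leaving out a library gave 3343 to 6899 genes lower against 4498, 0 to 3 members higher and 3 to 6 lower. The top counts lower came without DMSO library 3; 0 members were higher without VE-822 library 1 or 2, and 1 without library 3. For the difference between lines, 1 member, FASN, was positive with library size only, with no filter and under the replicate block, and 0 to 1 when a library was left out; 3 to 7 were negative, 7 without DMSO library 3 of 92.1.

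Values near 0 changed sign. FADS2 in MP38 was -0.0273 with library size only, -0.0190 under log2(FPKM + 1) and -0.0265 under log2(FPKM + 0.1), and -0.0138 to 0.0497 when a library was left out. ACLY in 92.1 was 0.0263, 0.0440 and 0.0447 under these settings and -0.22 to 0.0230 when a library was left out; ACSS2 in 92.1 was -0.14 to 0.24 when a library was left out, negative without DMSO library 3. The ACACA difference was -0.0221 with RLE factors and -0.0221 in DESeq2 and -0.14 to 0.12 when a library was left out; the FADS1 difference was 0.0239 with library size only, 0.0276 under log2(FPKM + 1) and 0.0259 under log2(FPKM + 0.1). The cause was not tested. FASN in 92.1 had adjusted p = 0.0908 in the robust fit, and ACACA 0.0664 with RLE factors.

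The labels do not tell whether the replicate numbers pair the samples. In 92.1 same-numbered VE-822 and DMSO libraries correlated at 0.076 to 0.109 in their deviations, and the other pairs at -0.095 to 0.034. In MP38 same-numbered pairs correlated at -0.067 to -0.011 and the other pairs at -0.022 to 0.051. With the replicate block, 8762 genes were called against 9156 in 92.1, 10666 against 11194 in MP38, 9881 against 10214 for the difference between lines and 19788 against 19904 for the DMSO level. The FASN difference was then 0.61 (adjusted p = 0.0102). With library size only, 5684 genes were higher and 3534 lower in 92.1, against 4658 and 4498; with no filter, the median of all genes there was 0.26 against 0.03. Depth did not limit the members, the lowest of which, FADS2, had over 22 CPM on average in every group.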
